A study of Mus musculus with 6 samples.

Results

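The miR-17-92 and miR-106b-25 clusters are a pair of related groups of microRNA (miRNA) genes, and the 10 mature miRNAs described here were taken from them by name, out of 1907 names counted in each library. They comprise 7 mouse miRNAs of miR-17-92 (mmu-miR-17-5p, mmu-miR-17-3p, mmu-miR-18a-5p, mmu-miR-19a-3p, mmu-miR-19b-3p, mmu-miR-20a-5p and mmu-miR-92a-3p) and 3 of miR-106b-25 (mmu-miR-106b-5p, mmu-miR-93-5p and mmu-miR-25-3p). All 10 had enough counts to be tested, among 697 tested miRNAs. Small RNA libraries came from primary dermal fibroblasts of newborn mice of mixed C57Bl/6 and FVB/N background, cultured for 6 days and sequenced at passage 1. In the 3 control libraries (ctrl, genotype Col1a2Cre-wt) the mice carried Cre recombinase alone, driven by the Col1a2 promoter, a collagen promoter active in fibroblasts. The mice of the 3 caNrf2 libraries (Col1a2Cre-caNrf2) carried the same Cre and a constitutively active mutant of Nrf2, the transcription factor of antioxidant genes. The series design gives a different mouse for each library of a group. Since Nrf2 is not an miRNA, the libraries show neither the transgene nor the share of cells that recombined.

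An miRNA is cut from a hairpin precursor, from which either arm (5p or 3p) can be kept, and it recognises its targets mainly through its seed, bases 2 to 8 from the 5′ end. miR-17-92 is made as one long transcript that is known to be switched on by the growth regulators Myc and E2F, and its miRNAs are best known for promoting the cell cycle and survival. miR-106b-25 lies inside Mcm7, a gene for a DNA replication helicase subunit that is itself induced in dividing cells.

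The members fall into 5 seed groups, some of which run across the clusters. The mature sequences are therefore shown by seed, from the RefSeq table for GRCm38.p6, with the seed in capitals. The miR-17 family holds members of both clusters and is known for repressing the cell cycle inhibitor p21 and E2F1.
miR-17-5p: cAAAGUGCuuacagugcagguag
miR-20a-5p: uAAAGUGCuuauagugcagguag
miR-93-5p: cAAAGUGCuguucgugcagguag
miR-106b-5p: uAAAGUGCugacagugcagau
The miR-18 family has 1 member here and differs from the miR-17 seed by a base.
miR-18a-5p: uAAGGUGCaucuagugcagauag
Of these clusters only miR-17-92 holds the miR-19 family.
miR-19a-3p: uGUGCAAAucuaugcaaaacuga
miR-19b-3p: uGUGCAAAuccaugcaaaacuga
The miR-92 family again spans both clusters, and miR-25 is known for repressing the death factor Bim.
miR-92a-3p: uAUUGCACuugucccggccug
miR-25-3p: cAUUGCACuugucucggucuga
The 3p arm of the Mir17 hairpin has a seed of its own.
miR-17-3p: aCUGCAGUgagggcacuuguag
With positions counted from the 5′ end, miR-19a-3p and miR-19b-3p differ at U11C alone, and miR-17-5p and miR-20a-5p at C1U and C12U. How reads that fit several of these were assigned is not given in the sources used here.

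The miR-17-92 hairpins lie on chromosome 14, plus strand, from Mir17 (start 115043671) to Mir92-1 (end 115044506), within an exon of the long noncoding RNA Mir17hg in GENCODE M21 (mm10). The Mir17 hairpin, chr14:115043671-115043754, shows both of its arms, which are both members, in capitals.
Mir17: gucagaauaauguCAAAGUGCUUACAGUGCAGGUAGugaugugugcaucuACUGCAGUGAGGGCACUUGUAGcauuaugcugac
The miR-106b-25 hairpins lie on chromosome 5, minus strand, from Mir25 (start 138165321) to Mir106b (end 138165818). Mir106b lies in an intron of Mcm7, and Mir93 and Mir25 overlap only exons of its retained-intron transcripts. Mature miR-19b-3p and miR-92a-3p have the same sequence in Mir19b-2 and Mir92-2 on the X chromosome, so sequence alone does not assign their counts to chromosome 14.

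Library totals ranged from 10443268 to 28237159 counts, larger in caNrf2 libraries 2 and 3 than in any control library. Levels are given as CPM, counts relative to the TMM-scaled library total, and 3 counts correspond to 0.106 to 0.287 CPM. The fibroblast miRNAs miR-199a, miR-214, miR-143, miR-145a and miR-21a (6 listed, none at 0) summed to 236811 to 241066 CPM in control and 228831 to 258944 CPM in caNrf2 libraries. Most of that sum is miR-21a-5p (108338 ± 3109 CPM in control) and miR-143-3p (84270 ± 5125 CPM). Of the 6, 2 fell with caNrf2 and none rose (adjusted p under 0.05). Over all 697 tested miRNAs 11.6% were called lower and 14.1% higher. miR-199a-5p went from 8305 ± 751 to 5849 ± 382 CPM (log2 fold change -0.51 ± 0.09, adjusted p = 0.00269 by edgeR) and miR-199a-3p from 34314 ± 2810 to 25890 ± 2420 CPM (-0.41 ± 0.10, adjusted p = 0.0140). miR-143-3p and miR-145a-5p were higher in every caNrf2 library than in any control library, as were 23.7% of all tested miRNAs. Neither passed (0.28 ± 0.09 and 0.31 ± 0.11 on the log2 scale, adjusted p = 0.0512 and 0.0602 by edgeR).

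The members covered a wide range of levels. miR-92a-3p, in 12th place of all 1907 names, had 18162 ± 943 CPM in control fibroblasts (mean ± SD, n = 3) and made up 93.2% ± 0.75 of the miR-17-92 counts. miR-25-3p followed with 2612 ± 53.5 CPM and made up 75.7% ± 0.89 of the miR-106b-25 counts. Next in control fibroblasts came miR-93-5p, miR-19b-3p, miR-17-5p, miR-106b-5p, miR-19a-3p, miR-20a-5p, miR-18a-5p and miR-17-3p, the last with 80.9 ± 2.17 CPM. Only miR-19a-3p and miR-20a-5p overlapped their neighbour in that order. In caNrf2 fibroblasts miR-19b-3p stood before miR-93-5p, with overlapping ranges, and miR-106b-5p, miR-19a-3p and miR-20a-5p also overlapped in sequence. The mature miRNAs are 21 to 23 bases long, and the order per base was the same.

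**Figure D1:**
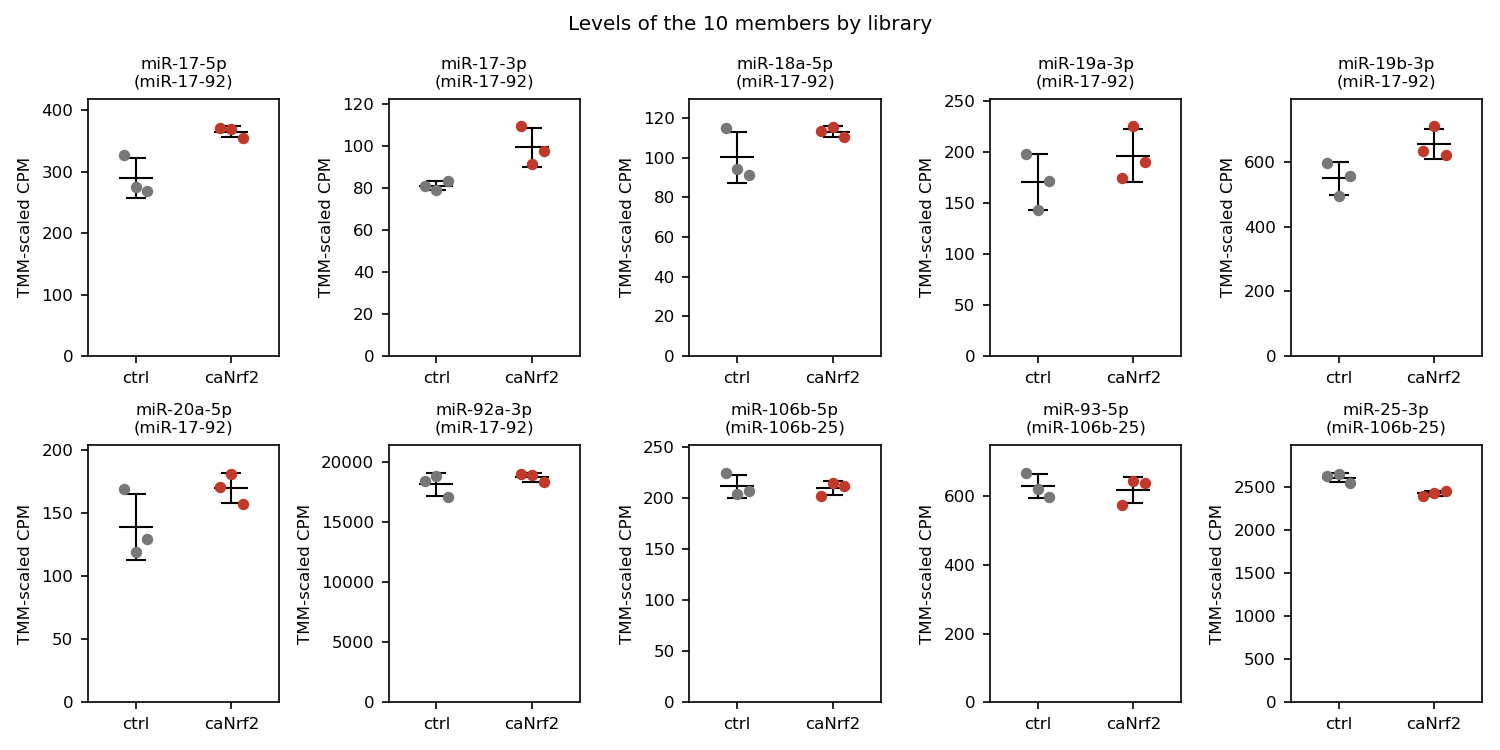
TMM-scaled CPM (y axes from 0, 1 scale per panel) of each member in the 3 control (grey) and 3 caNrf2 (red) libraries, with mean and SD bars. miR-17-5p, miR-17-3p and miR-19b-3p were higher in every caNrf2 library than in any control library, and miR-25-3p lower.

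The comparison of the genotypes asks which miRNAs differ when Nrf2 is constantly active. Among the 10 members 1 rose, miR-17-5p, and none fell. Over all 697 tested miRNAs 25.7% were called (edgeR quasi-likelihood test, Benjamini-Hochberg adjusted p under 0.05), 14.1% as higher and 11.6% as lower, so 1 call among 10 members is not above the background. For 4 of the 10 the groups had separate CPM ranges, against 41.6% of all tested miRNAs. All 7 miR-17-92 members had positive log2 fold changes, from 0.05 to 0.33 with a median of 0.26, and all 3 miR-106b-25 members had negative ones, from -0.10 to -0.01 with a median of -0.02. The median of all tested miRNAs was 0.03, and 53.5% of them had a positive value. The clusters were not tested against each other.

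Of the 4 members of the miR-17 family, 2 from each cluster, only miR-17-5p passed the test. miR-17-5p had 328, 275 and 268 CPM in control libraries 1, 2 and 3 and 370, 370 and 355 CPM in caNrf2 libraries 1, 2 and 3. Every caNrf2 library lay above every control library, as it did for 23.7% of all tested miRNAs. The rise was 1.26-fold (log2 fold change 0.33 ± 0.09 SE, edgeR adjusted p = 0.0216). Leaving out control library 2 (adjusted p = 0.0877), control library 3 (0.106) or caNrf2 library 1 (0.0588), 2 (0.0829) or 3 (0.0549) ended the call, which held without control library 1 (0.00813). In the latter library miR-17-5p was the highest of the controls.

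miR-20a-5p, which shares the seed and the transcript of miR-17-5p, had 169, 119 and 129 CPM in the control libraries and 171, 181 and 158 CPM in the caNrf2 libraries. Control library 1 lay within the caNrf2 range, and the other controls lay below it. The log2 fold change was 0.29 ± 0.13 (edgeR adjusted p = 0.142), and without control library 1 it was 0.44 with an adjusted p of 0.0196. Leaving out control library 2 gave 0.18 (0.389) and leaving out caNrf2 library 2 gave 0.22 (0.361). For miR-93-5p, the most abundant miRNA of the family, control levels of 666, 620 and 597 CPM stood beside 574, 642 and 638 CPM with caNrf2. miR-106b-5p had 224, 204 and 206 CPM in control and 202, 215 and 212 CPM in caNrf2 libraries. The groups overlapped for both, at -0.02 ± 0.08 and -0.01 ± 0.08 on the log2 scale (adjusted p = 0.863 and 0.936 by edgeR), and their signs turned under some alternatives.

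Summed over its 4 members, the miR-17 family had 1388, 1218 and 1201 CPM in control libraries and 1317, 1408 and 1362 CPM in caNrf2 libraries, and the groups overlapped. Its make-up differed more than its sum. miR-17-5p and miR-20a-5p gave 35.8%, 32.4% and 33.1% of the family's counts in control libraries 1, 2 and 3 and 41.1%, 39.2% and 37.6% in caNrf2 libraries 1, 2 and 3, without overlap. The mean share was 33.8% ± 1.8 in control and 39.3% ± 1.75 in caNrf2 fibroblasts. A share within a library does not depend on the scaling. No p is given for shares or sums over members. The members were chosen with earlier results known, a limit that also applies to the p values of single members.

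**Figure D2:**
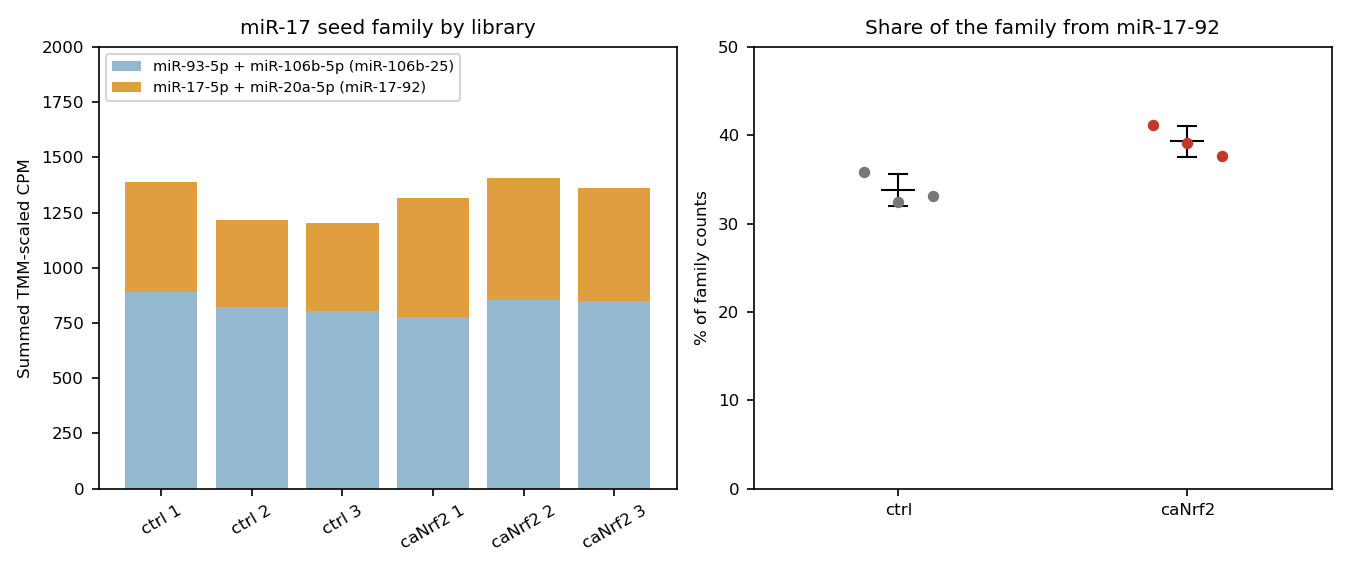
Left, summed TMM-scaled CPM of the miR-17 seed family in each library, stacked by cluster. Right, percentage of the family's counts that came from miR-17-5p and miR-20a-5p, with mean and SD over 3 libraries per group: 32.4% to 35.8% in control and 37.6% to 41.1% in caNrf2 libraries.

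The other seeds of miR-17-92 gave no further call. miR-19b-3p had 596, 494 and 557 CPM in control and 634, 710 and 622 CPM in caNrf2 libraries, without overlap (log2 fold change 0.26 ± 0.09, edgeR adjusted p = 0.0664). It passed when libraries were scaled by their totals only (adjusted p = 0.0487). miR-19a-3p had 198, 143 and 172 CPM against 175, 225 and 190 CPM, with overlap (0.20 ± 0.14, edgeR adjusted p = 0.299). Its value was 0.08 without control library 2, 0.07 without caNrf2 library 2 and at most 0.31 without any other single library. Together the miR-19 family had 720 ± 78.6 CPM in control and 852 ± 71.99 CPM in caNrf2 fibroblasts. miR-18a-5p, whose targets include the matrix factor Ctgf, had 115, 94.4 and 91.3 CPM in control and 113, 116 and 111 CPM in caNrf2 libraries, where control library 1 again overlapped (0.18 ± 0.11, edgeR adjusted p = 0.287, and 0.11 without control library 3 to 0.28 without control library 1). miR-17-3p had 80.8, 78.7 and 83.1 CPM against 109, 91.2 and 97.2 CPM, without overlap (0.29 ± 0.11, edgeR adjusted p = 0.0755). It passed in the fit restricted to miRNAs averaging 10 CPM or more (adjusted p = 0.0275).

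In the miR-92 family the abundant members had small log2 fold changes, and neither passed. miR-92a-3p had 18486, 18900 and 17100 CPM in control and 18998, 18929 and 18326 CPM in caNrf2 libraries, with overlap (log2 fold change 0.05 ± 0.08, edgeR adjusted p = 0.706). miR-25-3p had 2626, 2656 and 2552 CPM in control and 2397, 2437 and 2454 CPM in caNrf2 libraries. Every caNrf2 library lay below every control library, as for 17.9% of all tested miRNAs, but the difference did not pass (-0.10 ± 0.07, edgeR adjusted p = 0.286). Their sum was 20774 ± 996 CPM in control and 21180 ± 347 CPM in caNrf2 fibroblasts.

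By cluster, the 7 miR-17-92 members summed to 19493 ± 949 CPM in control and 20350 ± 427 CPM in caNrf2 fibroblasts, with overlap. That sum is nearly all miR-92a-3p. Without it, an alternative added after seeing the data, the other 6 summed to 1487, 1205 and 1300 CPM in control and 1573, 1693 and 1532 CPM in caNrf2 libraries, without overlap and 1.20 times as high on average. The 3 miR-106b-25 members summed to 3517, 3479 and 3356 CPM in control and 3173, 3293 and 3303 CPM in caNrf2 libraries. That was 0.944 times as high on average, without overlap. On average miR-25-3p, which was not called, made up 75.7% of the cluster's counts in control and 74.6% in caNrf2 libraries. The other 2 members summed to 839 ± 45.7 CPM in control and 827 ± 45.0 CPM in caNrf2 fibroblasts, with overlap.

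The remaining arms of the same hairpins were listed as relatives, not members. Of the 5 other miR-17-92 arms 2 rose and none fell, against 14.1% called higher among all tested miRNAs, and of the 3 other miR-106b-25 arms none was called. miR-92a-1-5p, which comes only from the chromosome 14 copy of Mir92, had 148, 174 and 149 CPM in control and 191, 248 and 203 CPM in caNrf2 libraries, without overlap. It rose 1.36-fold (log2 fold change 0.45 ± 0.12, edgeR adjusted p = 0.0183), a call that ended when control library 1 (adjusted p = 0.0578), control library 3 (0.0820) or caNrf2 library 2 (0.102) was left out. miR-20a-3p was scarce, with 128 counts in control and 347 in caNrf2 libraries in all, and its mean went from 2.71 ± 0.10 to 5.10 ± 1.06 CPM. That rise was 1.90-fold (0.92 ± 0.18 on the log2 scale, adjusted p = 0.00397 by edgeR). It stayed called in all 14 alternatives that tested it.

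The other 3 miR-17-92 arms also had positive values. That of miR-18a-3p was 0.23 ± 0.13 on the log2 scale (adjusted p = 0.231 by edgeR), and miR-19a-5p and miR-19b-1-5p, with 177 and 58 counts over the 6 libraries, had 0.31 ± 0.34 and 0.75 ± 0.43. The value of miR-19b-1-5p was 0.44 without control library 3 and 1.15 without control library 1. In all, the 12 tested miR-17-92 arms had 12 positive log2 fold changes with a median of 0.29, of which 3 passed. That share of calls is near the 25.7% of all tested miRNAs called in either direction. All 3 calls were higher, against 14.1% of all tested miRNAs called higher. The 6 miR-106b-25 arms had 2 positive and 4 negative values with a median of -0.02, of which none passed at an adjusted p or at an unadjusted p under 0.05. miR-106b-3p, miR-93-3p and miR-25-5p had log2 fold changes of -0.07 ± 0.09, 0.18 ± 0.14 and 0.25 ± 0.14, the last with 0.14 without control library 1 and 0.32 without caNrf2 library 3. Arms of 1 transcript are not independent observations.

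**Figure D3:**
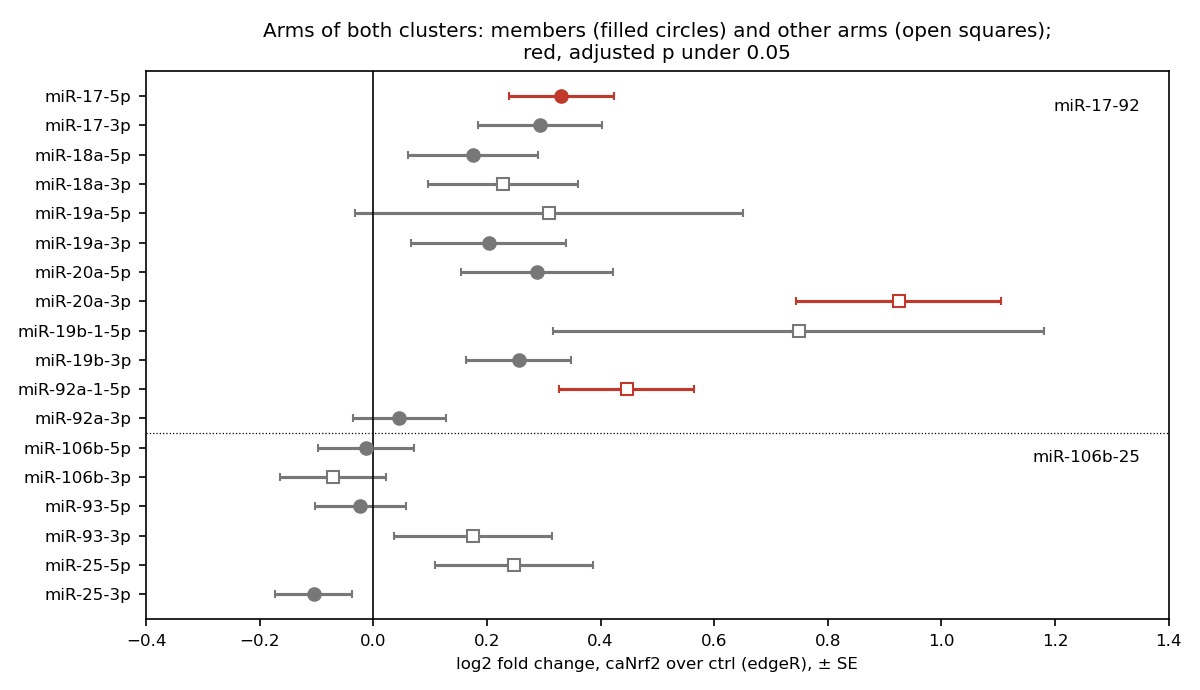
edgeR log2 fold change of caNrf2 over ctrl with its SE (x axis) for the 18 tested arms, in the order of the hairpins. All 12 miR-17-92 arms lie above 0, with miR-17-5p, miR-20a-3p and miR-92a-1-5p called (red), and the miR-106b-25 arms lie on both sides of 0.

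The ratio of the arms of a hairpin was compared within libraries, where scaling plays no part. Two-sided exact permutation tests over 9 hairpins, each with 3 against 3 libraries and a smallest possible p of 0.1, could not pass a threshold of 0.05. In 4 hairpins the ratio of the more to the less abundant arm was lower in every caNrf2 library than in any control library, and in none was it higher in every one. Over all 209 arm pairs of 1 hairpin with both arms tested, these 9 included, 13.9% were lower in that way and 6.22% higher. Some of these pairs share an arm. For Mir92-1 the ratio was 125, 108 and 115 in control and 99.5, 76.5 and 90.3 in caNrf2 libraries, a mean log2 difference of -0.39. For Mir20a it was 63.9, 42.2 and 47.3 against 41.0, 29.0 and 31.8 (-0.58), with only 27 to 150 counts per library of the less abundant arm, miR-20a-3p. Mir25 had 67.1, 53.1 and 53.2 against 41.8, 42.5 and 50.8 (-0.36), and Mir93 had 39.9, 40.6 and 40.7 against 34.3, 37.7 and 33.98 (-0.19). Each of these 4 had an exact permutation p of 0.1, or 0.225 adjusted over the 9. By its sequence miR-92a-3p can also come from the X chromosome, which the Mir92-1 ratio does not separate. The other arm of that copy, miR-92a-2-5p, had 0 counts in every library.

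In the other 5 hairpins the groups overlapped. The Mir17 ratio of miR-17-5p to miR-17-3p was 3.59 ± 0.42 in control and 3.70 ± 0.33 in caNrf2 fibroblasts (exact permutation p = 0.8). Mir18 had 4.49 ± 0.27 and 4.35 ± 0.08, and Mir106b, the most even of the hairpins, 1.33 ± 0.10 and 1.39 ± 0.14. The ratios of Mir19a and Mir19b-1 rest on minor arms with few counts, from 12 to 58 and from 5 to 18 per library.

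**Figure D4:**
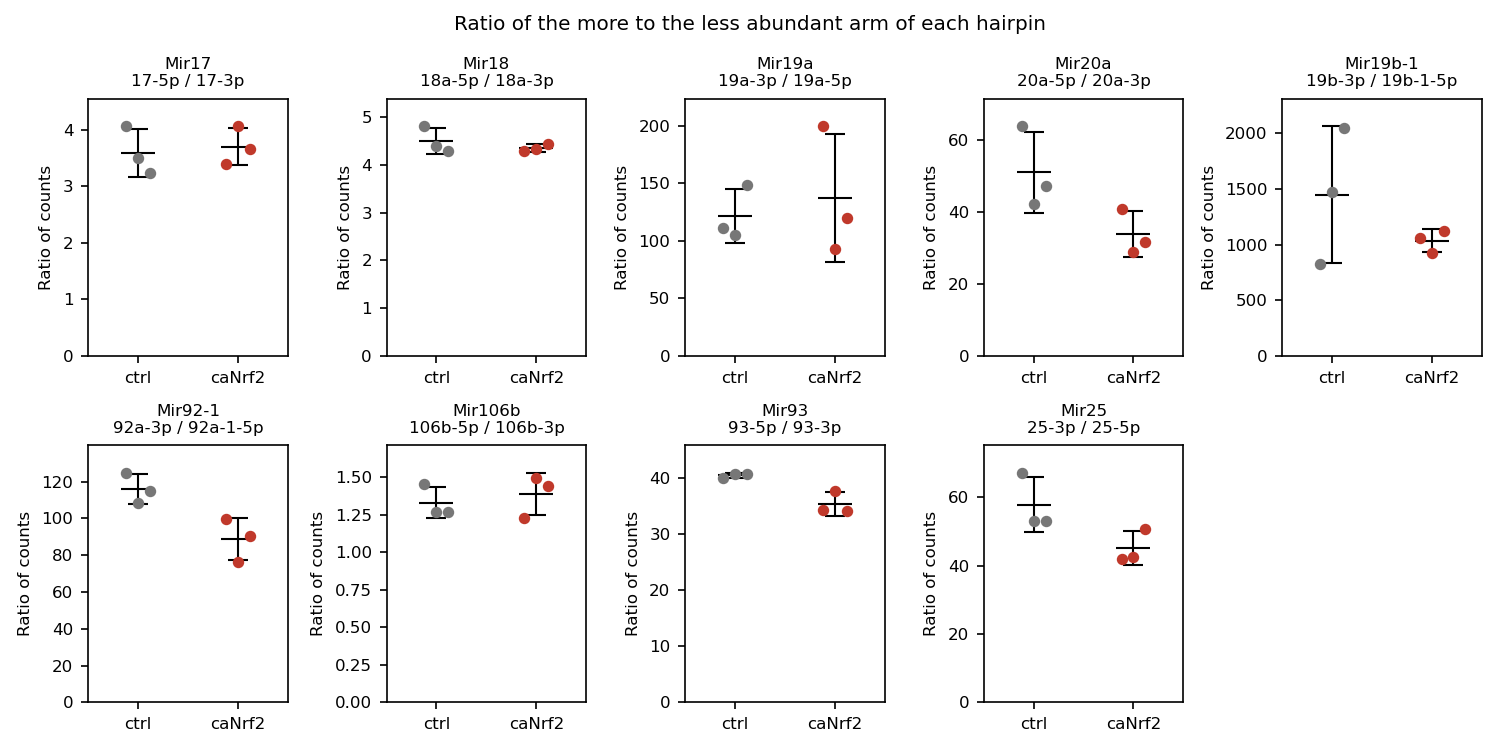
Ratio of counts of the more to the less abundant arm (y axes from 0, 1 scale per panel) in each control (grey) and caNrf2 (red) library, with mean and SD bars. The groups are separate for Mir20a, Mir92-1, Mir93 and Mir25 and overlap for the other 5 hairpins.

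The third cluster of the family, miR-106a-363 on the X chromosome, had few counts. Its 10 listed arms were all too scarce to be tested. miR-106a-5p, which differs from miR-17-5p at U10A only, summed to 12 counts in control and 26 in caNrf2 libraries, miR-363-3p to 12 and 21, and miR-20b-5p to 4 and 2. Both miR-19b-2-5p and miR-92a-2-5p, the arms that would mark the X chromosome copies of miR-19b and miR-92a, had 0 counts in all 6 libraries. Elsewhere in the genome, miR-92b-3p carries the miR-92 seed and had 268, 315 and 266 CPM in control and 250, 238 and 253 CPM in caNrf2 libraries, without overlap (log2 fold change -0.20 ± 0.09, edgeR adjusted p = 0.142, and -0.24 without control library 1 to -0.12 without control library 2). miR-32-5p had 9.89 ± 2.55 and 9.64 ± 0.76 CPM, and miR-367-3p had 0 counts.

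Among 182 other miRNAs averaging 100 CPM or more, those whose log2 profile over the 6 libraries lay closest to the mean profile of the miR-17-92 members were miR-186-5p, miR-99b-3p and miR-27b-3p. Their root mean square distances were 0.068, 0.069 and 0.072 log2 units, against a median of 0.24 over the 182. The members' own distances ran from 0.05 for miR-18a-5p to 0.13 for miR-92a-3p. Each member is part of that mean profile, so these distances are not comparable with those of the other miRNAs. Closest to miR-106b-25 were let-7g-5p (0.02), let-7f-5p (0.05) and miR-1983 (0.07), against a median of 0.18. Likeness over 6 libraries in 2 groups is a description only.

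Some miRNAs of other cell types were higher in the caNrf2 libraries, and miR-17-92 is known to be abundant in blood cells. Over all tested miRNAs 14.1% were called higher. Of 6 blood cell miRNAs 4 rose and none fell, and their sum was 385 to 474 CPM in control and 648 to 759 CPM in caNrf2 libraries. Most of that sum is miR-486a-5p, a miRNA of red cells and muscle, which rose from 386 ± 32.5 to 534 ± 47.7 CPM (log2 fold change 0.47 ± 0.09, adjusted p = 0.00469 by edgeR). The leukocyte miRNAs miR-142a-5p, miR-142a-3p and miR-223-3p rose by more, with log2 fold changes of 1.85 ± 0.26, 1.74 ± 0.25 and 1.90 ± 0.23. Their adjusted p values were 0.00073, 0.00079 and 0.00029 by edgeR. Mean levels went from 39.6, 5.71 and 4.01 CPM in control to 143, 19.4 and 15.3 CPM in caNrf2 fibroblasts. miR-150-5p was not called (-0.10 ± 0.17, adjusted p = 0.693 by edgeR). None of the 6 was at 0 in all libraries, and the red cell miRNA miR-451a had 2.70 ± 0.50 and 3.84 ± 0.77 CPM (0.48 ± 0.20, adjusted p = 0.114 by edgeR). All 3 tested of 4 muscle miRNAs rose (336 to 412 against 546 to 723 CPM summed), with the muscle fibre miRNA miR-1a-3p at 9 and 16 counts. Most of the muscle sum is miR-133a-3p (371 ± 38.9 and 614 ± 90.3 CPM). Mean levels of miR-206-3p were 3.86 and 7.93 CPM, and those of miR-499-5p 1.26 and 2.90 CPM. The 2 tested of 3 neural miRNAs rose (144 to 153 against 197 to 203 CPM). Most of the neural sum is miR-128-3p (142 ± 3.41 and 188 ± 4.02 CPM). The neural miRNA left untested, miR-124-3p, had 8 counts in control and 9 in caNrf2 libraries in all. Of 6 epithelial and 2 endothelial miRNAs none was called, with sums of 1011 to 1820 against 1573 to 2074 CPM and of 116 to 165 against 147 to 170 CPM. Most of the epithelial sum is miR-205-5p, with 1013 ± 333 CPM in control and 1475 ± 151 CPM in caNrf2 fibroblasts and overlapping groups. Its log2 fold change was 0.54 ± 0.19 (adjusted p = 0.0590 by edgeR). Control library 1, the highest control for miR-17-5p, miR-20a-5p, miR-19a-3p, miR-19b-3p and miR-18a-5p, was the highest control for the epithelial sum and the lowest for the blood, endothelial, muscle and neural sums. The part of other cells in the miR-17-92 values was not tested, and more cells of a type and more RNA per cell cannot be told apart in such bulk libraries.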

How the data were processed

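The deposited files hold raw counts per mature miRNA, 1 library each. Of tools, the submitters' processing notes list Bowtie, featureCounts, cutadapt, CASAVA 1.8 and edgeR, with mm10 as the build and no order or settings. Groups came from the sample titles. No 2 libraries of a group were copies (lowest chi-square per degree of freedom 116). The whole table was fitted with edgeR 4.0.16 in R 4.3.3 (filterByExpr, minimum count 10, TMM, glmQLFit, glmQLFTest, group only) and adjusted by Benjamini and Hochberg over 697 miRNAs. SEs came from the F statistic. Arm ratios used counts with 0.5 added. For the background of arm ratios, arms were paired by hairpin in the RefSeq table. The fit was also run on simulated data. The changed miRNAs there had larger fold changes than any member, so that run does not cover effects as small as those of the members. Alternatives were DESeq2 1.42.0, voom in limma 3.58.1, RLE or no scaling factors, a table without the top 5 miRNAs and other filters. Further alternatives were a replicate block, merged near-identical miRNAs, and leaving out each library. Merging joined miR-17-5p with miR-106a-5p, miR-20a-5p with miR-20b-5p, miR-18a-5p with miR-18b-5p and miR-92a-3p with miR-92b-3p. Members were not merged with each other, so the assignment of reads among members was not tested. Named were all members, tested relatives and the 3 closest profiles per cluster, and untested relatives and markers were named outside this rule. RefSeq sequences (GRCm38.p6) matched 10 of 10 members and 19 of 21 relatives. Members and lists were chosen with earlier results of these data known. Counting floors cover counting error only.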

Additional observations from a re-analysis of the deposited data

How the results depend on the processing

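No member was called lower in any of the 15 alternatives, and every miR-17-92 member kept a positive log2 fold change in all of them. With only miRNAs of at least 10 CPM tested, 60 of 371 were called higher over all miRNAs in place of 98. Called members numbered 2 with library totals only and with that filter, and from 0 to 2 without single libraries, against 1. Called relatives numbered 1 with the filter, which leaves miR-20a-3p untested, and from 1 to 2 without single libraries, against 2. With RLE size factors the summed miR-106b-25 level had a log2 ratio of -0.12 in place of -0.08. miR-106b-5p turned positive with library totals only (0.0084) and the filter (0.011), with -0.054 to 0.023 without single libraries. miR-93-5p turned positive with the filter (0.0012) and had -0.073 to 0.021 without single libraries. miR-32-5p turned positive with limma-voom (0.021) and the block (0.00045), with -0.22 to 0.13 without single libraries. miR-19a-5p had -0.11 to 0.54, and the log2 arm ratio differences had -0.029 to 0.14 for Mir17, -0.079 to 0.0029 for Mir18 and -0.19 to 0.36 for Mir19a without single libraries. The cause of these changes was not tested. The replicate block called 102 miRNAs higher and 87 lower. It kept the call of miR-17-5p (adjusted p = 0.0231) and changed no call of a member or relative. Same-numbered libraries had deviations correlated at 0.178, 0.114 and -0.218, and control library 3 correlated best with caNrf2 library 2 (0.357), so the numbers were not taken to pair the samples.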
